A study of Mus musculus with 8 samples.

Results

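The 10 genes described here encode the transporters, channels and identity proteins by which astrocytes are usually recognised. They were taken by symbol: the glutamate transporters Slc1a2 and Slc1a3, the glutamine synthetase Glul, the connexins Gja1 and Gjb6, the water channel Aqp4, the potassium channel Kcnj10, and the identity genes Gfap, Aldh1l1 and S100b. All 10 were found among the 20802 genes of the deposited table, and all 10 passed the filter on low values that left 18865 genes for testing. The rule that picks them uses no measured value, although earlier results of these data were known when they were proposed. Hippocampal RNA came from 8 male C57BL/6 mice aged PND28, 4 of the Anesthesia group and 4 Control. Mice of the Anesthesia group had received ketamine intraperitoneally at 35 mg per kg on each of 5 days from PND16, and mice of the Control group received saline on the same schedule according to the protocol, although the sample titles call them untreated. The labels name no transgene and no further agent. The samples are whole hippocampus, so that fewer astrocytes and less RNA per astrocyte cannot be told apart in any value below.

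Astrocytes clear glutamate from synapses through the transporters GLT-1 (Slc1a2) and GLAST (Slc1a3), and glutamine synthetase (Glul) converts it to glutamine, which is handed back to neurons. The connexins Cx43 (Gja1) and Cx30 (Gjb6) join the cells into a network through gap junctions. Kir4.1 (Kcnj10) takes up potassium, and aquaporin 4 (Aqp4) carries water at the endfeet around blood vessels. Several of these genes are not limited to astrocytes. Slc1a2 transcripts are also found in hippocampal neurons, Glul, Kcnj10 and S100b in oligodendrocytes, and Gja1 and Gjb6 in the meninges.

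Values are normalized counts, that is, counts estimated per gene and divided by a size factor for each library. Their totals were 18702634 to 19231119 per mouse. From the spacing of the low values, each library held roughly 15400000 to 22200000 reads, at which counting alone gives a coefficient of variation of 0.353% to 3.86% for the members. The SD between mice was above this counting error in all but 2 of 20 gene and group pairs, the exceptions being Gja1 in Control and S100b in Anesthesia mice. Dissections differed in the tissue they held. The summed level of 10 choroid plexus genes was 86108 normalized counts in Anesthesia replicate 1 and 4525 to 9733 in the other 3 Anesthesia mice, against 4275 in Control replicate 1 and 45645 to 102828 in the other 3 Control mice. Choroid plexus transcripts were abundant in 1 Anesthesia mouse and 3 Control mice. Kcne2 was listed at 0 in Control replicate 1, and every other gene of that list was above 0 in all 8 mice. The 10 oligodendrocyte genes summed to between 113742 and 194956 in the Anesthesia group and between 102150.2 and 185517 in the Control group. The 6 dentate granule neuron genes were highest in Anesthesia replicate 2 (8488 normalized counts) and lowest in Anesthesia replicate 3 (3207).

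Per kilobase of the longest annotated transcript, Glul had the highest level, 7975 ± 548.4 normalized counts per kb (SD, n = 8 mice), followed by Slc1a2 at 6638 ± 530.2. The ranges of these 2 genes over the 8 mice overlapped. Slc1a3 (2579.6 ± 99.9) lay apart from both. Gfap (1599 ± 227.7) and S100b (1077 ± 68) overlapped each other. Aqp4 (792.1 ± 74.2), Gja1 (648 ± 29.3), Gjb6 (460.1 ± 37.9), Aldh1l1 (232 ± 34.2) and Kcnj10 (127.2 ± 16.4) followed, each apart from its neighbours. The span from Glul to Kcnj10 was 62.7-fold. Per kilobase, Slc1a2 exceeded Slc1a3 by 2.57-fold and Gja1 exceeded Gjb6 by 1.41-fold. Dividing by the merged exons of all transcripts instead placed S100b above Gfap and Gjb6 above Gja1, so the order within those pairs depends on the transcript model.

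**Figure D1:**
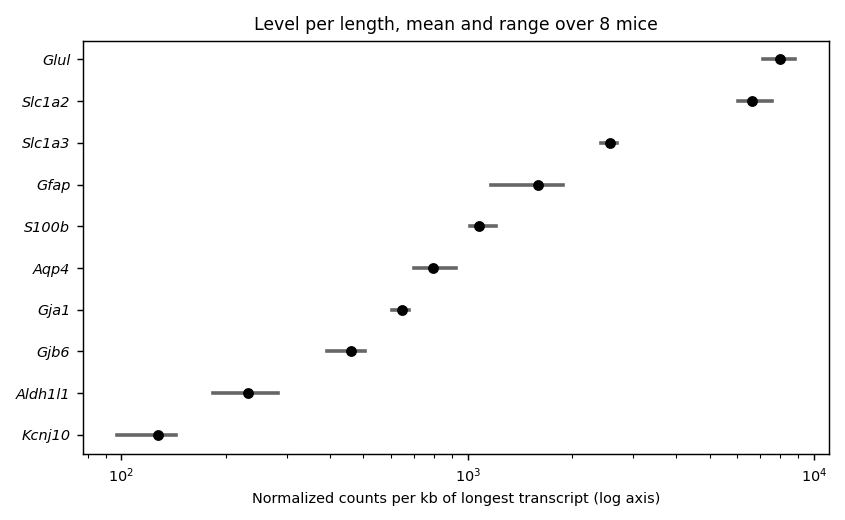
Level of the 10 astrocyte genes in normalized counts per kb of the longest transcript, on a log axis. Points are means over 8 mice and bars run from the lowest to the highest mouse, and Glul and Slc1a2 stand above the rest.

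The comparison of the Anesthesia and Control groups asks whether repeated ketamine anesthesia left a difference in these transcripts at PND28. None of the 10 genes passed the threshold. In limma on log2(value + 1) across all 18865 genes, their adjusted p-values lay between 0.62 and 0.967, and 0 of all genes tested (percent called 0.0) passed it at 0.05. The paper tested the same mice with DESeq2 and did report genes past an adjusted p of 0.05, most of them higher. The count of 0 therefore applies to the limma fit of the normalized values. Slc1a2 was the 1 of the 10 with an unadjusted p below 0.05, a level reached by 8.02% of all genes tested. Values of the groups did not overlap for 2 of the 10, Slc1a3 and Gja1, both lower in the Anesthesia group, against 5.04% of all genes (2.23% lower and 2.81% higher). Of the 10, 3 were higher and 7 were lower with anesthesia, and their median difference was -0.063 on the log2 scale, against -0.004 over all genes tested, of which 49.2% were higher. The largest difference of a member was 0.17 on the log2 scale. Whether the mice within a group came from separate litters is not stated, so the tests measure the spread between these mice.

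**Figure D2:**
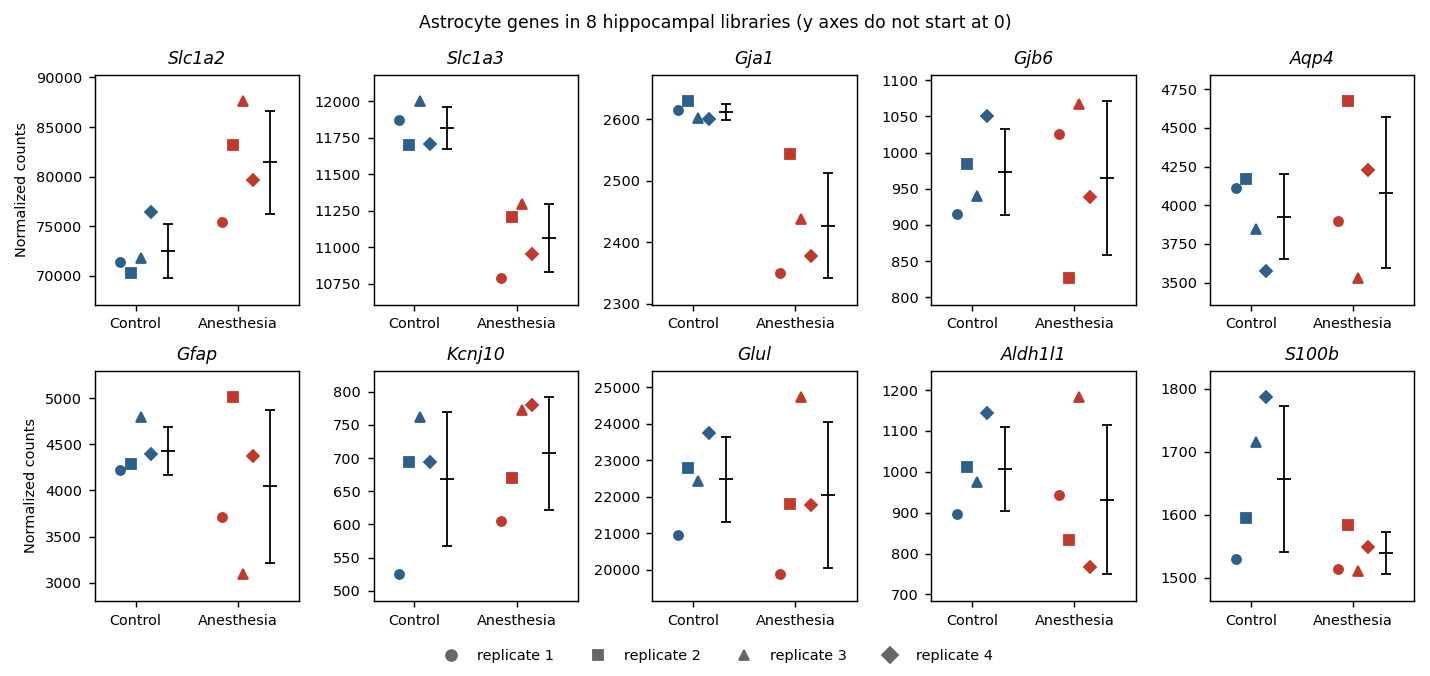
Normalized counts of each gene in each mouse, Control in blue and Anesthesia in red, with a symbol for each replicate number and the mean with its SD beside the points. The groups are separate for Slc1a3 and Gja1, and they overlap for the other 8 genes.

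The glutamate transporters stood on opposite sides of the Control level. Slc1a2 (ENSMUSG00000005089, chromosome 2, 102658659 to 102790784 on GRCm38), which encodes the main glutamate transporter of the forebrain, had 75386, 83187, 87619 and 79633 normalized counts in Anesthesia replicates 1 to 4 and 71418, 70245, 71819 and 76406 in Control replicates 1 to 4. Anesthesia replicate 1 lay below Control replicate 4, and the other 3 Anesthesia mice lay above every Control mouse. The means were 81456 ± 5201 with anesthesia and 72472 ± 2706 without (SD, n = 4 per group), and the log2 fold change was 0.17 (standard error 0.06, 95% interval 0.03 to 0.30), or 1.12-fold. The unadjusted p was 0.019 and the adjusted p = 0.62 from limma, and the exact permutation test gave p = 0.0571 (two-sided). After each library had been corrected for GC content and transcript length, Slc1a2 differed by 0.082 on the log2 scale, with an unadjusted p of 0.142 from limma. Its longest transcript has 11595 bases, the longest among the 10 genes. Snap25 and 7 further neuron genes summed to 105219 normalized counts in Anesthesia replicate 3, where Slc1a2 was highest, and to between 91149 and 99605 in the other mice, and their part in the result was not tested.

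Slc1a3 (ENSMUSG00000005360, chromosome 15, 8634124 to 8710764), which encodes the transporter that predominates in radial glia and early astrocytes, had 10789, 11208, 11299 and 10952 normalized counts in Anesthesia replicates 1 to 4. In Control replicates 1 to 4 it had 11868, 11701, 12001 and 11707. Every Anesthesia mouse lay below every Control mouse. The means were 11062 ± 233.9 and 11819.6 ± 143.7 (SD, n = 4 per group), and the log2 fold change was -0.096 (standard error 0.04, 95% interval -0.19 to 0.0003, adjusted p = 0.622 from limma), or 0.936-fold. The unadjusted p was 0.0505 from limma. The exact permutation test gave p = 0.0286 (two-sided), the smallest that 4 mice against 4 allow, which only restates the lack of overlap. Slc1a3 varied little from mouse to mouse, since its SD within groups was 0.025 on the log2 scale and only 0.032% of all genes tested had a smaller one. The median over all genes was 0.192. After the GC and length correction its log2 fold change was -0.082, with an unadjusted p of 0.0808 from limma.

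Since both transporters were measured in the same libraries, their ratio does not depend on a size factor shared by all genes of a library. The ratio was chosen after the values of the genes had been seen. Normalized counts of Slc1a2 were 6.99, 7.42, 7.75 and 7.27 times those of Slc1a3 in Anesthesia replicates 1 to 4. In Control replicates 1 to 4 they were 6.02, 6.00, 5.98 and 6.53 times those of Slc1a3. All 4 Anesthesia mice lay above all 4 Control mice. The mean ratio was 7.36 ± 0.32 against 6.13 ± 0.263 (SD, n = 4 per group), a log2 difference of 0.26 (standard error 0.04), given as a description with no test. After the GC and length correction the difference was 0.16, and the groups still did not overlap. Ratios of the connexins Gja1 and Gjb6 did overlap, at 2.55 ± 0.372 with anesthesia and 2.69 ± 0.164 without (SD, n = 4 per group).

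**Figure D3:**
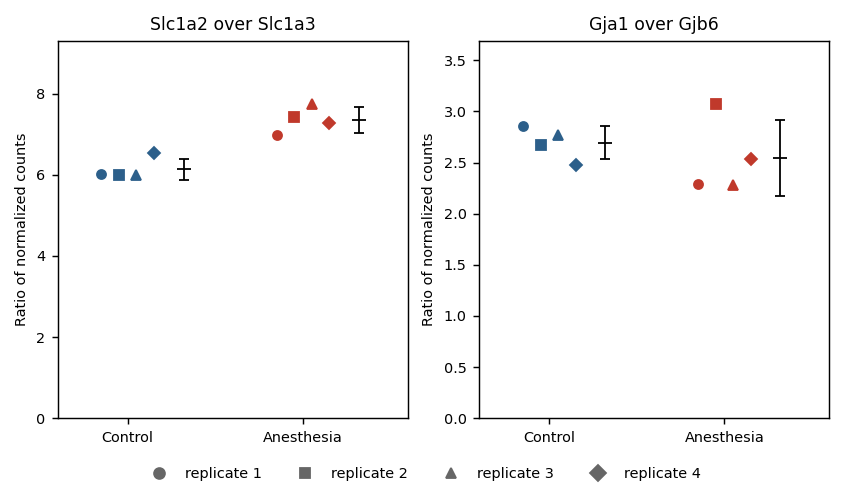
Ratio of normalized counts within each library for the transporter pair and the connexin pair, Control in blue and Anesthesia in red, with mean and SD beside the points. The Slc1a2 to Slc1a3 ratio is between 5.98 and 6.53 in Control mice and between 6.99 and 7.75 in Anesthesia mice, and the Gja1 to Gjb6 ratio overlaps.

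Gja1 (ENSMUSG00000050953, chromosome 10, 56377330 to 56402513), the gap junction gene of Cx43, had 2350.5, 2543, 2438 and 2378 normalized counts in Anesthesia replicates 1 to 4 and 2616, 2629.8, 2603 and 2601 in Control replicates 1 to 4. All Anesthesia mice lay below all Control mice. The SD of the Control mice, 13.3, was smaller than the 51 normalized counts that counting alone gives at this depth, and their spread is therefore an underestimate. In the Anesthesia group the counting SD was 49.6. The means were 2427 ± 85.1 and 2612 ± 13.3 (SD, n = 4 per group), and the log2 fold change was -0.11 (standard error 0.05, 95% interval -0.22 to 0.003, adjusted p = 0.627 from limma), or 0.929-fold. The unadjusted p was 0.0546 from limma. The exact permutation test gave p = 0.0286 (two-sided, the smallest possible), which again only restates the lack of overlap. Corrected for GC content and transcript length, its log2 fold change was -0.079, with an unadjusted p of 0.132 from limma. Its partner connexin Gjb6 (chromosome 14, 57123303 to 57133611) had 826.6 to 1067 normalized counts in the Anesthesia group and 914.9 to 1050.3 in the Control group. The difference was -0.016 on the log2 scale (standard error 0.09, 95% interval -0.21 to 0.18), and its sign turned after the GC and length correction (0.0004).

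Anesthesia replicate 1, which had the highest sum of choroid plexus genes in its group, had the lowest value of Slc1a3 and of Gja1. Control replicate 1, which had the lowest such sum, had 11868 normalized counts of Slc1a3 and 2616 of Gja1. With the mean level of the choroid plexus list as a covariate, the log2 fold changes were -0.11 for Slc1a3 and -0.12 for Gja1, against -0.096 and -0.11 without it, and 0.14 for Slc1a2 with an unadjusted p of 0.0689 from limma. With the oligodendrocyte list as a covariate they were -0.097, -0.11 and 0.17. None of the 3 genes changed direction when each of the 8 mice was left out in turn. Slc1a2 stayed between 0.13 and 0.20, Slc1a3 between -0.11 and -0.084, and Gja1 between -0.13 and -0.091.

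The promoter windows of Slc1a3 and Gja1 are shown because these are the members whose groups did not overlap, and that of Gfap because its promoter is widely used to direct expression to astrocytes. RefSeq (GRCm38.p6) gave a window, 250 bases before to 50 after the start, for 9 of the 10 members. Capitals mark matches on either strand to TATAAA (the TATA box), CCAAT (the CCAAT box), GGGCGG (the GC box), the NFI palindrome, TTCNNNGAA (STAT), ACAAAG (SOX), TGAGTCA (AP-1) and TGACGT (CRE-like), the last 2 added after the sequences had been read. Slc1a3 lies on the minus strand at chr15:8710758-8711057, Gja1 on the plus strand at chr10:56377050-56377349 and Gfap on the minus strand at chr11:102897151-102897450.
Slc1a3: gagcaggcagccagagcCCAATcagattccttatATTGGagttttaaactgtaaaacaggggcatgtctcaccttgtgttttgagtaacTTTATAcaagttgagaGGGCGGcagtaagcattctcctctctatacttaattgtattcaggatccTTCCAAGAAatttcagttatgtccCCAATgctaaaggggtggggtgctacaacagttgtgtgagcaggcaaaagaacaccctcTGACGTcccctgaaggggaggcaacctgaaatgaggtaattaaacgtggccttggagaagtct
Gja1: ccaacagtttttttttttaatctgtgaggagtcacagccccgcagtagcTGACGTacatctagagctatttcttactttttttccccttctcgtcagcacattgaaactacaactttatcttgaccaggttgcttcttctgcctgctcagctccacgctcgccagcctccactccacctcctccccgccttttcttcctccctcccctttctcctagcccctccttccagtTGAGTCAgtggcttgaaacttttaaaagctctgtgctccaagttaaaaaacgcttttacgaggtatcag
Gfap: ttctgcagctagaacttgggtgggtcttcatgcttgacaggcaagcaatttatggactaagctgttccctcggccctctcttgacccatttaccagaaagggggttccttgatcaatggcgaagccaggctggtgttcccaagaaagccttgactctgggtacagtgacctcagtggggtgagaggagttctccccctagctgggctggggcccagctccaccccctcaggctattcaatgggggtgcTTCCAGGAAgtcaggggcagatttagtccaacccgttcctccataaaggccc
The Slc1a3 window held 1 match to the TATA box, 3 to CCAAT, 1 to the GC box and 1 to the STAT motif, and the Gja1 window 1 match to AP-1. Both held 1 match to TGACGT, which is present in 7.51% of all 32851 promoter windows. Gfap held 1 match to the STAT motif, which is present in 8.3% of them. Shares of the other motifs were 13.6% for TATAAA, 37.4% for CCAAT, 35.7% for GGGCGG, 5.2% for TGAGTCA, 18.7% for ACAAAG and 0.0365% for the NFI motif. The RefSeq start of Slc1a3 lies upstream of the gene as GENCODE places it. These matches describe letters in the windows, and binding was not measured.

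Gfap, the intermediate filament gene that marks astrocytes, and Aqp4 spread more within the Anesthesia group than within the Control group. The same held for every other member except Kcnj10 and S100b, so it was not particular to Gfap and Aqp4. The coefficient of variation was 20.5% against 5.83% for Gfap and 11.9% against 6.98% for Aqp4. Their SD within groups on the log2 scale, 0.22 and 0.14, was not unusual beside the median of 0.192 over all genes. Gfap (ENSMUSG00000020932, chromosome 11, 102887336 to 102900912) had 3713, 5007, 3089 and 4374 normalized counts in Anesthesia replicates 1 to 4 and 4222, 4285, 4796 and 4394 in Control replicates 1 to 4. The Anesthesia mice included both the highest and the lowest of the 8 values. The means were 4046 ± 828.2 and 4424 ± 257.9 (SD, n = 4 per group), and the log2 fold change was -0.15 (standard error 0.13, 95% interval -0.43 to 0.13, adjusted p = 0.754 from limma). Without Anesthesia replicate 3 it was -0.028 and without Anesthesia replicate 2 it was -0.26, the limits of the 8 values found by leaving out a mouse. Aqp4 (ENSMUSG00000024411, chromosome 18) had 3897, 4673, 3529 and 4226 normalized counts against 4112, 4172, 3843 and 3575, a log2 fold change of 0.051 (standard error 0.09, 95% interval -0.14 to 0.24, adjusted p = 0.882 from limma).

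Anesthesia replicates 2 and 3 were the extremes of both genes, and they were also the extremes of the dentate granule neuron list. Prox1, the transcription factor gene of dentate granule neurons, had 2397 normalized counts in Anesthesia replicate 2 and 956.6 in Anesthesia replicate 3. When the dentate granule neuron list entered the fit as a covariate, the log2 fold change was -0.17 for Gfap and 0.040 for Aqp4. This fit was decided once the data had been seen. These fold changes compare the groups and do not measure the spread within them. The part of tissue composition in the spread of these genes was not tested.

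**Figure D4:**
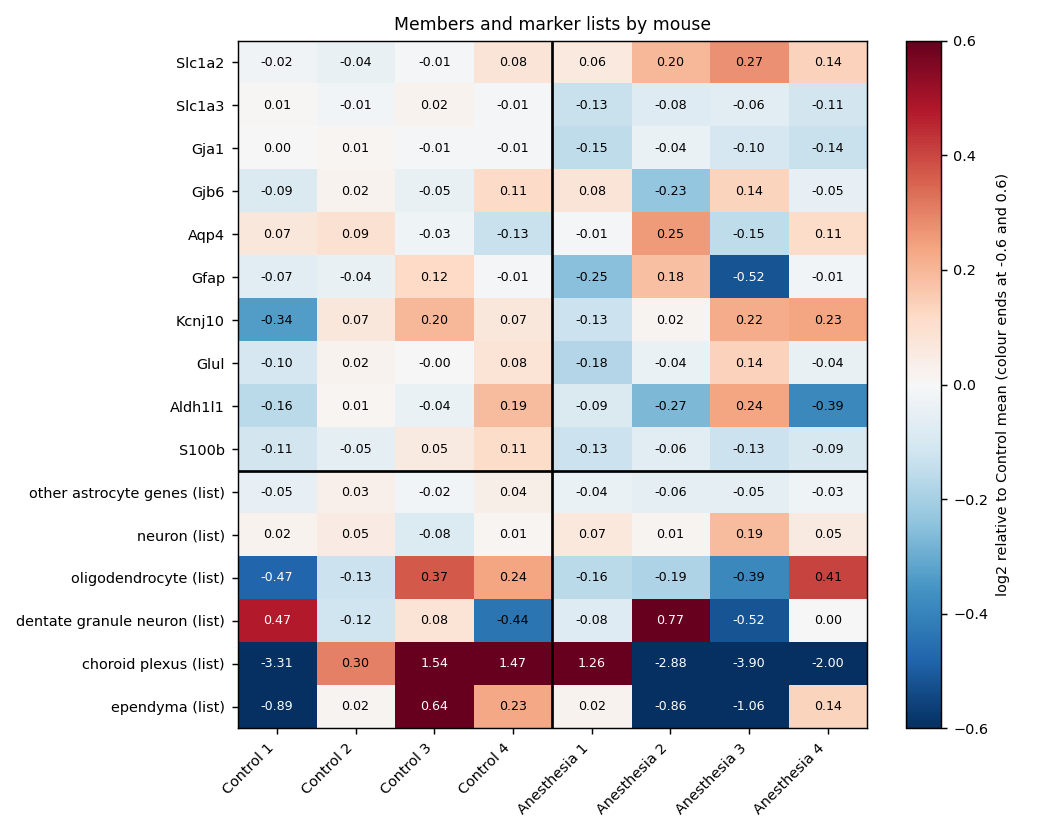
Log2 level relative to the Control mean for the 10 genes (above the line) and for the mean of 6 marker lists (below it) in each mouse, with the value in each cell and colours that end at -0.6 and 0.6. Slc1a3 and Gja1 are below 0 in all 4 Anesthesia mice, Gfap is at -0.52 in Anesthesia replicate 3, and the choroid plexus list runs from -3.90 to 1.54.

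Kcnj10 and Glul did not separate the groups. Kcnj10 (chromosome 1, 172341210 to 172374085) had 604.7 to 779.4 normalized counts in the Anesthesia group and 524.7 to 761.7 in the Control group, a log2 fold change of 0.086 (standard error 0.12, 95% interval -0.19 to 0.36). Its lowest value, in Control replicate 1, came from the mouse with the lowest sum of oligodendrocyte genes, and without that mouse its log2 fold change was -0.026. When the oligodendrocyte list entered as a covariate it was 0.12. Glul (chromosome 1, 153899944 to 153909723) had 19879 to 24722 against 20952 to 23759 normalized counts, a log2 fold change of -0.031 (standard error 0.07, 95% interval -0.19 to 0.12), which was 0.018 without Anesthesia replicate 1. The interval of Kcnj10 still allows a difference of the size seen in Slc1a2.

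Aldh1l1 (chromosome 6, 90486427 to 90600203), a folate enzyme gene used as a pan-astrocyte marker, had 943.2, 832.2, 1182 and 767.2 normalized counts in Anesthesia replicates 1 to 4 and 895.7, 1012, 974.2 and 1143 in Control replicates 1 to 4. Anesthesia replicate 3 was the highest of all mice and Anesthesia replicate 4 the lowest. Its log2 fold change was -0.13 (standard error 0.13, 95% interval -0.41 to 0.16). Leaving out a mouse gave -0.25 without Anesthesia replicate 3, -0.040 without Anesthesia replicate 4, -0.063 without Control replicate 4 and values between these without any other. S100b (chromosome 10, 76253853 to 76261159), a calcium-binding protein gene, had 1514, 1583, 1510.5 and 1548 normalized counts against 1530, 1595, 1715 and 1786. The Anesthesia mice were close together. Anesthesia replicates 1 and 3 lay below every Control mouse, and the others lay at the lower end of the Control range. The S100b difference was -0.10 on the log2 scale (standard error 0.06, 95% interval -0.24 to 0.04, adjusted p = 0.677 from limma).

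**Figure D5:**
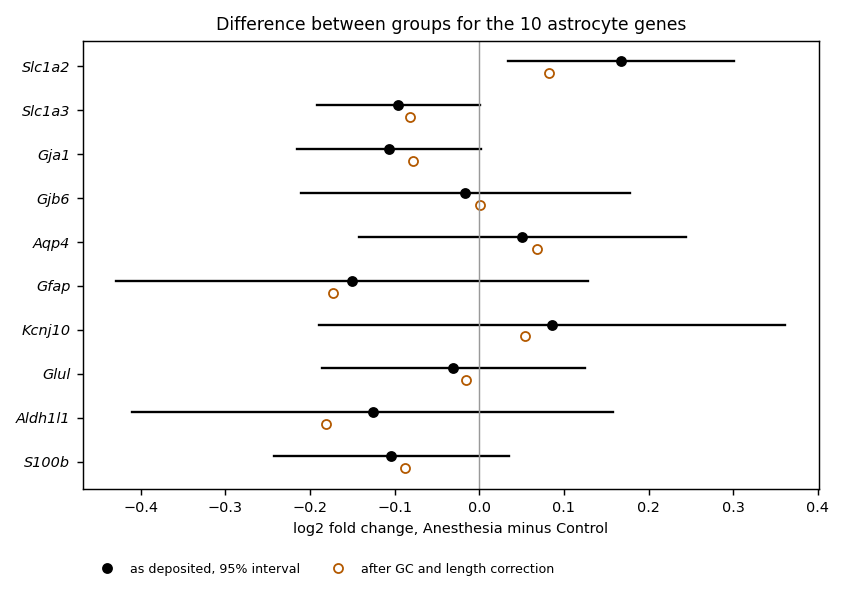
Log2 fold change of each gene, Anesthesia minus Control, from limma with its 95% interval (filled), and after correction for GC content and transcript length (open). The interval of Slc1a2 lies above 0, those of the other 9 genes include 0, and the corrected value of Slc1a2 is 0.082.

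Across the mice the 10 genes did not move as a block. Anesthesia replicate 1 had 8 of the 10 below the Control mean, Anesthesia replicate 2 had 6, Anesthesia replicate 3 had 5 and Anesthesia replicate 4 had 7, while the Control mice had 4 to 7. Summed normalized counts of the 10 genes were 120101 to 137228 in the Anesthesia group and 119053 to 127116 in the Control group, of which Slc1a2 made up the larger share. By the SD within groups on the log2 scale, Slc1a3 (0.025), Gja1 (0.036), S100b (0.075) and Slc1a2 (0.075) were the least variable, and Gfap (0.22) and Aldh1l1 (0.22) the most.

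Other astrocyte genes were counted in lists that had been set with earlier results of these data known. None of their members passed the adjusted threshold in limma. Counts at an unadjusted p below 0.05 follow, to be read against 4.75% of all genes tested that were higher and 3.27% that were lower at that level. Among 12 partners of the glutamate and glutamine cycle, 4 were higher and 8 lower, with a median log2 fold change of -0.019, or -0.058 after the GC and length correction, and 0 at that level. The neuronal glutamate transporter gene Slc1a1 had 3315 ± 171.5 against 3499.9 ± 44.1 normalized counts (SD, n = 4 per group), and the log2 fold change was -0.080. The glutamate receptor gene Grm3 had 1503 ± 333.6 against 1266 ± 143.4, a log2 fold change of 0.23, with Anesthesia replicate 3 the highest at 1992. Among 9 gap junction partners, including the oligodendrocyte connexins and the pannexins, 4 were higher and 5 lower, with a median of -0.013 (-0.055 to 0.064 without a mouse) and 0 at that level. Panx2 had a log2 fold change of 0.22 and Panx1 of -0.091.

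Among 17 genes that anchor channels at the endfeet or keep ion balance, 10 were higher and 7 lower, with a median of 0.038. This median was -0.026 after the GC and length correction and -0.0037 without Anesthesia replicate 3, so its sign depends on both. Of the 17, 3 were at an unadjusted p under 0.05, all higher. Agrn, the basement membrane proteoglycan agrin, had 2942, 3513, 3497 and 3076 normalized counts in Anesthesia replicates 1 to 4 and 2815, 3048, 2857 and 2826 in Control replicates 1 to 4. The lowest Anesthesia mouse lay below the highest Control mouse, and the difference was 0.17 on the log2 scale, with a standard error of 0.07 and an adjusted p = 0.62 from limma. The syntrophin gene Sntb1 had 142.7 ± 60.7 against 184.8 ± 44.6 (SD, n = 4 per group), and the log2 fold change was -0.42. The other 2 at that level, named after their values were seen, were the dystroglycan gene Dag1 and the aquaglyceroporin gene Aqp9.

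Of 24 further astrocyte genes, 8 were higher and 16 lower, with a median of -0.040. Cbs, an enzyme gene of sulfur amino acid metabolism, had 446.3 ± 116.6 against 336.1 ± 43.8 normalized counts (SD, n = 4 per group), and the log2 fold change was 0.38, with Anesthesia replicate 2 the highest at 610.4, and it was the only one of the 24 at an unadjusted p under 0.05. The claudin gene Cldn10 had 444.5 ± 34.7 against 509.6 ± 45.8, a log2 fold change of -0.20. Of 9 radial glia and immature astrocyte genes, 4 were higher and 5 lower, with a median of -0.070 (-0.12 to 0.037 without a mouse). At an unadjusted p under 0.05 was 1 of the 9, and it was lower. Vim, the intermediate filament gene vimentin, had 625.4 ± 64.8 against 742.5 ± 75.2 (SD, n = 4 per group), and the log2 fold change was -0.25 with an adjusted p = 0.62 from limma, and Sox2 had a log2 fold change of 0.18.

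Of 16 reactive astrocyte genes, 15 were listed and 13 tested, of which 2 were higher and 11 lower, with a median of -0.24. At an unadjusted p under 0.05 was 1 of the 13, and it was lower. Cp, which encodes ceruloplasmin, had 444.9 ± 83.4 against 631.5 ± 193.7 normalized counts (SD, n = 4 per group), and the log2 fold change was -0.47 with an adjusted p = 0.622 from limma. Cd44 was at 0.35 on that scale, with a standard error of 0.44. Control replicate 4 stood apart in this list, since Lcn2 had 109.7 normalized counts there and 0 to 6.81 in the other 7 mice, and without that mouse the median of the list was -0.052. It was -0.41 without Anesthesia replicate 2, -0.12 without Anesthesia replicate 3, and -0.26 to -0.15 when any of the remaining mice was left out. Fitting the choroid plexus level alongside the group, in all 8 mice, gave a median of -0.15 for this list. How far the tissue held in each dissection contributed to the lower values was not otherwise tested.

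Markers of the other cells that the dissection could hold had no member past the adjusted threshold in limma either. Choroid plexus genes were lower in 10 of 10 (median log2 fold change -1.95), ependymal genes in 7 of 7 (-0.33), meningeal and fibroblast genes in 6 of 7 (-0.51), blood genes in 5 of 5 (-0.22) and oligodendrocyte genes in 10 of 10 (-0.065). Of the 8 neuron genes 7 were higher (median 0.030), and of the 8 microglia genes 6 were higher (0.047). At an unadjusted p under 0.05 were 2 neuron genes, higher (4.75% of all genes). Lower at that level were 2 meningeal, 1 ependymal and 1 thalamic gene (3.27% of all genes), with 0 in the remaining lists of this paragraph. The groups did not overlap for 2 neuron genes and 1 microglia gene, all higher, against 2.81% of all genes. Medians were -0.0017 for 6 oligodendrocyte precursor genes, 0.015 for 7 endothelial genes, -0.18 for 6 thalamic genes, 0.0098 for 6 genes of CA1 pyramidal neurons and -0.015 for 6 of dentate granule neurons. Leaving out a mouse moved the medians to between -3.08 and -1.29 for choroid plexus, -0.61 and -0.092 for ependyma, -0.63 and -0.37 for meninges and fibroblasts, and -0.34 and -0.12 for blood. The oligodendrocyte median ranged from -0.23 to 0.052, and it was 0.10 with the choroid plexus list as covariate, under which the ependymal median was 0.11. The neuron and microglia medians stayed above 0 without any mouse (0.0064 to 0.094 and 0.0014 to 0.10), and those of the oligodendrocyte precursor, endothelial, thalamic, CA1 and dentate granule lists took both signs.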

How the data were processed

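Hippocampal RNA of 8 mice was sequenced, with 1 library per mouse. The authors quantified transcripts with Salmon (version 1.1.0) on GRCm38 with GC bias correction, summarised them per gene with tximport and normalized with DESeq2 (version 1.30.1), and the deposited values are this normalized signal. The annotation release is not given in the sources used here. The paper's methods name a stranded library kit and the labels a different TruSeq kit, so reads of Slc1a2 and Glul may not be told apart from those of the opposite-strand genes Gm13872 and Teddm2, which share 189 and 116 exon bases with them, nor those of Aldh1l1 from antisense Gm15756 (499). Since only 46.1% to 68.3% of low values came within 0.1 of whole reads, no count model was fitted, and limma (version 3.58.1, R version 4.3.3) with a mean-variance trend was fitted to log2(value + 1), a scale that understates changes of low genes, over 18865 genes with a mean of at least 10. Adjustment over these genes followed Benjamini and Hochberg. The script was tested on simulated data. Symbols and positions came from GENCODE M21, which held 20784 of the 20802 identifiers. Correction for GC content and transcript length used a loess fit (span 0.5) on the longest transcript of each gene. Alternatives were a pseudocount of 0.1, other filters and scalings, limma voom, the replicate number as a block, marker lists as covariates, and each mouse left out in turn.

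Named genes are the 10 members, the gene with the smallest unadjusted p in each direction of each other list, and 3 genes most like the mean of the members. The members and the lists were chosen with earlier results of these data known. The labels do not say whether replicate numbers pair the mice, and the main fit treated them as unpaired.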

Additional observations from a re-analysis of the deposited data

Results flagged for a closer look

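In 24 groups of 4 mice (10 genes and 2 ratios in each group of mice), 1 held a mouse far from the other 3, and 1.2 would by chance. The ratio of Slc1a2 to Slc1a3 was 6.53 in Control replicate 4 against 5.98 to 6.02 in the remaining Control mice, a gap of 0.939 of the range. That mouse was still below the lowest Anesthesia mouse, at 6.99, and it was kept.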

How the results depend on the processing

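The number of genes with an adjusted p under 0.05 was 0 in all alternatives except when Control replicate 1 was left out, which gave 2 (range 0 to 2 over the 8 fits without a mouse), and none was a member. Genes with an unadjusted p under 0.05 numbered 1513 (59.3% higher), 892 with the combined GC, length and replicate block correction, 854 with the choroid plexus list as covariate and 1061 to 2024 without a mouse; the share that was higher was 48.1% with GC and length correction. Among the 10 members, 1 had an unadjusted p under 0.05. This was 2 with a pseudocount of 0.1, 3 with scaling to library size, limma voom or the dentate granule neuron list as covariate (added after seeing the data), 0 with the choroid plexus list as covariate or GC and length correction, with or without replicate block, and 0 to 4 without a mouse. The median of the 10 members stayed between -0.079 and -0.033. Gjb6 turned to 0.0004 with GC and length correction (also with replicate block), to 0.021 with the choroid plexus covariate, and ranged from -0.067 to 0.056 without a mouse. Without a mouse, Aqp4 ranged from -0.017 to 0.12, Kcnj10 from -0.026 to 0.16 and Glul from -0.087 to 0.018. The other 6 members kept their direction in all 20 alternatives. The Slc1a2 to Slc1a3 difference of 0.26 was 0.16 with GC and length correction and 0.24 to 0.29 without a mouse. The causes were not tested.

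Deviations of mice with the same replicate number correlated at -0.242, -0.109, -0.182 and 0.019, and 0 of 8 mice correlated best with its own number. The replicate block left 0 genes past the adjusted threshold and 1084 at an unadjusted p under 0.05.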

Other observations

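Among 12093 further genes with a mean of at least 100 normalized counts, Fam107a, Tmco3 and Apba3 had the profiles over the 8 mice most like the mean of the 10 members, with Pearson correlations of 0.949, 0.926 and 0.917. These values were the highest of 12093 and are given as a description of 8 libraries that share their dissection and size factors. Fam107a, an actin-associated gene that astrocytes express strongly, had 4889.7, 5369, 5974 and 5251 normalized counts in Anesthesia replicates 1 to 4 and 4975, 5672, 6189 and 6599.5 in Control replicates 1 to 4, and the groups overlapped.

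Markers of other cells that could lie in the dissection were also examined. The neuronal splicing factor gene Rbfox3 had 902.8 to 1159 normalized counts in the Anesthesia group and 806.4 to 874 in the Control group, which did not overlap (log2 fold change 0.30, standard error 0.08, adjusted p = 0.568 from limma). The microglial receptor gene P2ry12 had 717.7 ± 29.2 against 642.9 ± 60.4 (SD, n = 4 per group), also without overlap, with a log2 fold change of 0.16. The proteoglycan gene Lum, of meninges and fibroblasts, had 62.2 ± 23.1 against 107.1 ± 16.4 (SD, n = 4 per group), and the log2 fold change was -0.82 with an adjusted p = 0.568 from limma, and Anesthesia replicate 1 overlapped the Control mice. The thalamic transcription factor gene Tcf7l2 had 36.8 ± 1.81 against 56.3 ± 13.2 (SD, n = 4 per group), with a log2 fold change of -0.57 and an adjusted p = 0.62 from limma. Its groups overlapped, with 39.55 in Anesthesia replicate 4 and 37.65 in Control replicate 1.

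The other genes with the smallest unadjusted p of their list and direction all overlapped between groups. On the log2 scale, Tdo2 (0.33), Rora (0.22), Olig2 (0.21), Wfs1 (0.18), Cldn5 (0.14) and Slc6a13 (0.11) were higher in the Anesthesia group. Kcnj13 (-1.40), Rarres2 (-0.49), Fibcd1 (-0.25), Hba-a2 (-0.24), Kdr (-0.17), Mog (-0.16), Lct (-0.081), Pdgfra (-0.078), C1qb (-0.067) and Nefl (-0.035) were lower. None passed the adjusted threshold in limma.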
